A study of Rattus norvegicus with 12 samples.

Results

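The genes described are the solute carriers for amino acids and sugars, taken as every gene symbol of the families Slc1, Slc2, Slc3, Slc5, Slc6, Slc7, Slc36, Slc38 and Slc43. There were 79 such genes among 16493 gene symbols, and the choice used the names alone and no measured value. The families held 7 genes (Slc1), 11 (Slc2), 2 (Slc3), 11 (Slc5), 17 (Slc6), 15 (Slc7), 4 (Slc36), 9 (Slc38) and 3 (Slc43). Since membership goes by name, carriers of other substrates are included, such as the vitamin carrier Slc5a6, the creatine carrier Slc6a8 and the neurotransmitter carriers Slc6a2, Slc6a3 and Slc6a4.
RNA from the uterus of Sprague-Dawley rats was sequenced in 12 libraries. Every rat had been ovariectomized on postnatal day (PND) 50, kept on a purified diet from PND30 with casein or soy protein isolate as its protein, and given a subcutaneous minipump that held polyethyleneglycol vehicle with or without estradiol (E2). CAS rats had casein and vehicle, CAS-E2 rats casein and 5 μg/kg/d of E2, SPI rats soy protein isolate and vehicle, and SPI-E2 rats soy protein isolate and the same dose of E2. By the labels, uteri were taken on PND65, although the sources differ by 1 day. Each group had 3 libraries, each a pool of RNA from 2 uteri, so a standard deviation (SD) here is between pools and n = 3 throughout. Pools of the same group were sequenced together, so the lane and the group cannot be told apart.
The values are FPKM, fragments per kilobase of transcript scaled to the depth of the library, summed over the transcripts of a gene. Tests were made with limma on log2(FPKM + 1), which understates changes at low values, and each log2 fold change (log2FC) below is on it. A gene is said to have risen or fallen where its Benjamini-Hochberg adjusted p over 10279 genes was under 0.05 and its change on that scale at least 2-fold. Depth was 6353210 to 9862180 mapped reads a library. The uterine markers Esr1, Pgr, Hoxa10 and Msx1 were measured in every library. Liver markers were high in SPI 1, and adipocyte markers in SPI 1 and SPI 2. Their values stand beside some of the carriers that were high in these libraries. Other carriers also had their highest value in SPI 1, among them Slc1a5 (13.4 FPKM), Slc2a2 (1.17) and Slc6a13 (0.793).

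Amino acid carriers work in a few modes. Exchangers swap an amino acid outside the cell for one inside, and many of them are a light chain of the Slc7 family held at the membrane by a heavy chain of the Slc3 family. Sodium-coupled carriers of the Slc1, Slc6 and Slc38 families pull amino acids in against their gradient. Glucose enters most cells down its gradient through Slc2 carriers, whereas Slc5 carriers bring in glucose or the osmolyte myo-inositol together with sodium. In the uterus, glucose and amino acids that the lining and glands pass into the luminal fluid feed the embryo before it implants.

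Of the 79 carriers, 74 had an FPKM above 0 in some library and 5 were listed at 0 in all 12 libraries. The latter were Slc6a3, Slc6a18, Slc6a19, Slc7a13 and Slc7a14, a dopamine carrier, kidney and gut amino acid carriers and relatives. Of all 79 carriers, 46 reached 1 FPKM in at least 3 libraries and were tested, and 23 reached 1 FPKM in every library. The other 33 were not tested, and their highest value in any library was 2.19 FPKM (Slc36a2 in SPI 1). Of the tested carriers, Slc1a6, Slc2a9, Slc5a1 and Slc6a14 reached 1 FPKM in E2 libraries only, and Slc3a1, Slc6a2, Slc7a10 and Slc38a3 in libraries without E2 only, so these entered the test through the groups in which they were high.

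By summed FPKM, which is a level per transcript length, Slc38 was the highest family in every library without E2, while with E2 the libraries of Slc38 and Slc2 overlapped. The Slc38 sum was 45.6 ± 3.14 FPKM (SD) in CAS and 57.1 ± 6.54 in CAS-E2, against 39.9 ± 5.36 in SPI and 52.1 ± 3.25 in SPI-E2. The Slc2 sum was 33.2 ± 0.263 FPKM (SD) in CAS and 56.3 ± 7.79 in CAS-E2, against 30.8 ± 3.77 in SPI and 63.3 ± 19.8 in SPI-E2. For Slc2, Slc5, Slc6 and Slc38, each E2 library was above each library without E2 of the same diet, and for the other families the pools overlapped in at least 1 diet, with median-ratio scaling too. The Slc5 sum was 11.7 ± 1.46 FPKM (SD) in CAS and 18.9 ± 4.25 in CAS-E2, against 10.7 ± 0.507 in SPI and 22.8 ± 5.50 in SPI-E2. The Slc6 sum was 22.2 ± 1.76 FPKM (SD) in CAS and 33.9 ± 5.88 in CAS-E2, against 18.2 ± 2.24 in SPI and 31.8 ± 4.99 in SPI-E2. Of the remaining sums, that of Slc3 was lower in each CAS-E2 library (12.8 to 14.8 FPKM) than in each CAS library (19.4 to 21.8 FPKM). Over all 9 families the sum was 194 ± 6.14 FPKM (SD) in CAS and 243 ± 13.4 in CAS-E2, against 173 ± 27.3 in SPI and 242 ± 36.1 in SPI-E2. On soy, SPI 1 at 202.4 FPKM nearly met SPI-E2 1 at 202.8, and with median-ratio scaling the soy pools overlapped. Single members weighed heavily in these sums. Slc6a14 had a mean of 0.485 FPKM in CAS and 15.9 in CAS-E2, and 0.461 in SPI and 14.4 in SPI-E2. For Slc5a3 these means were 1.94, 11.1, 1.77 and 12.7 FPKM. For Slc2a1 they were 7.97, 23.1, 5.74 and 30.3, and for Slc38a2 20.3, 32.7, 17.2 and 28.6. A higher sum does not show that most members of a family were higher. These sums are descriptions with no test.

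**Figure D1:**
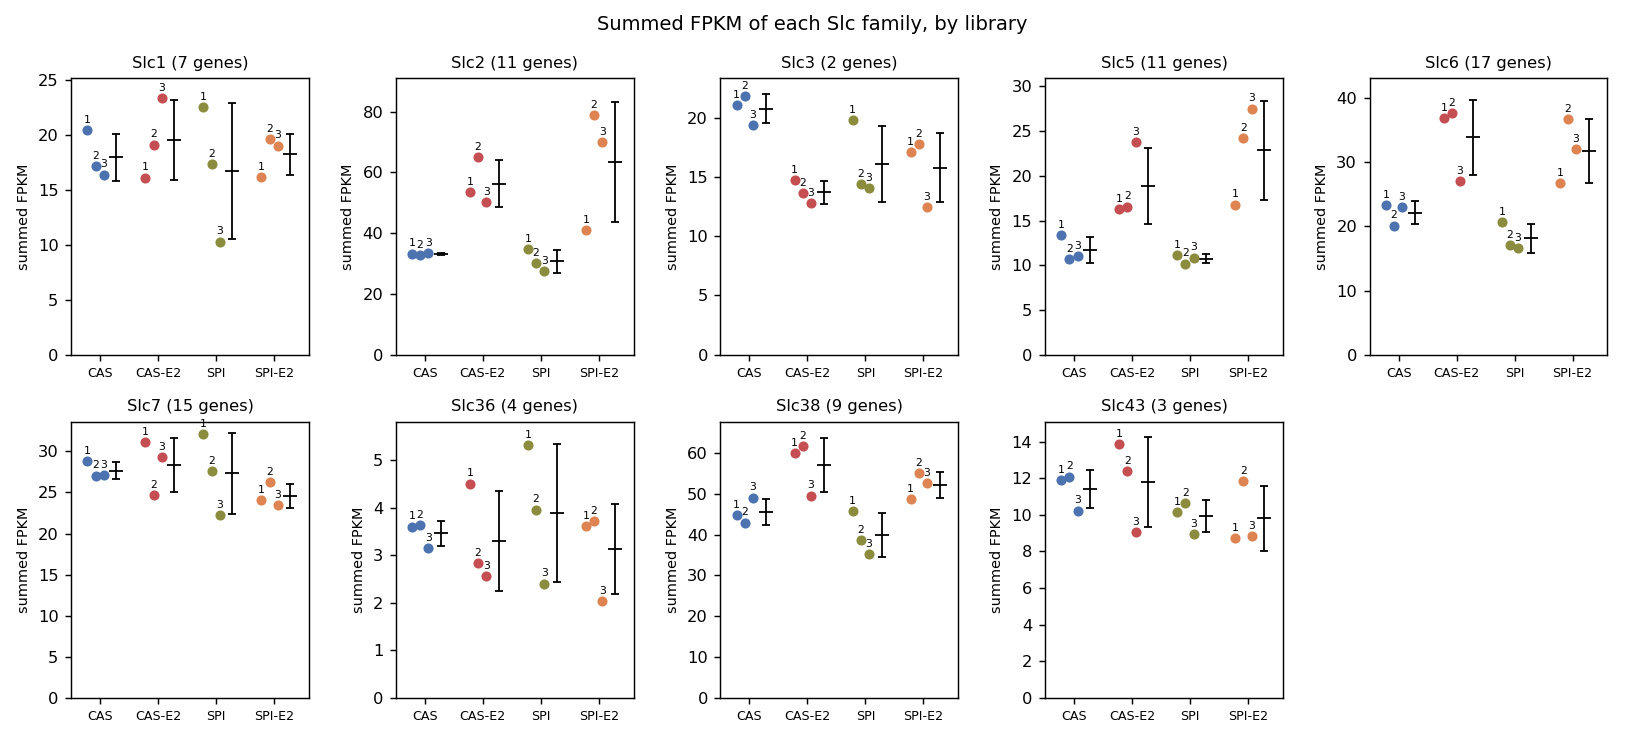
Summed FPKM of each Slc family on the vertical axis for the 12 libraries, by group. Points are libraries with their replicate number, and bars are the mean and SD of 3 libraries. The Slc2 sums are 50.3 to 65.1 FPKM in CAS-E2 and 32.9 to 33.4 in CAS, and within SPI-E2 library 1 is the lowest for Slc2, Slc5, Slc6 and Slc38.

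Under E2, the carriers that rose were the same 7 on casein and on soy. They were the glucose carriers Slc2a1 and Slc2a3, the sodium-coupled glucose carrier Slc5a1, the myo-inositol carrier Slc5a3, the amino acid carriers Slc6a14 and Slc43a2, and the glutamate carrier Slc1a6. On casein, 7 of 46 tested carriers rose (15.2%), beside 7.99% of all 10279 genes, and 2 fell (4.35%), beside 6.37% of all genes. On soy, 7 of 46 rose (15.2%), beside 8.39% of all genes, and 3 fell (6.52%), beside 1.86%. Of the carriers that rose, Slc1a6, Slc5a1 and Slc6a14 entered the test only through E2 libraries. Slc7a10, which fell on soy, entered it only through libraries without E2. These counts and shares are therefore descriptions and no test of the carriers as a set. The comparisons share no library. They came from 1 fit over all 12 libraries, with a shared filter and estimate of the spread, and so are not independent tests. All 7 carriers that rose on one diet rose on the other, whereas 590 genes overall rose in both, which is 71.9% of those that rose on casein and 68.4% of those that rose on soy. The median log2FC was 0.03 over the carriers and -0.07 over all genes on casein, and 0.07 and 0.11 on soy, so the middle of the 46 carriers lay near 0. With the adjusted p alone and no fold cutoff, 12 carriers were higher on casein (beside 17.1% of all genes) and 8 lower (beside 22%), and on soy 14 were higher (beside 21.1%) and 5 lower (beside 6.57%). The counts on soy changed with the setting, with 4 rises under median-ratio scaling, 3 rises and 0 falls without SPI-E2 2, and 5 rises and 0 falls without SPI 2 or without SPI-E2 3.
In a whole uterus, fewer cells of a type and less RNA per cell cannot be told apart. Beside these rises, 8 epithelial markers summed to 212 to 240.5 FPKM in CAS and 949 to 1643 in CAS-E2, and to 132 to 169 in SPI and 555 to 1994 in SPI-E2. Of these 8 markers, 7 rose on casein and all 8 on soy. The SPI-E2 library with 555 FPKM of epithelial markers was SPI-E2 1, and the other SPI-E2 libraries had 1968 and 1994. Of 6 macrophage and leukocyte markers, 4 rose on casein and 2 on soy, and of 6 stromal markers 2 fell on casein and 5 on soy. Of 4 endothelial markers, 3 fell on casein (Cdh5, Tie1 and Emcn) and 1 on soy, and the 4 summed to 65.0 to 79.6 FPKM in CAS, 29.99 to 43.1 in CAS-E2, 57.1 to 70.95 in SPI and 35.6 to 48.2 in SPI-E2. The part of these markers in the results was not tested.

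**Figure D2:**
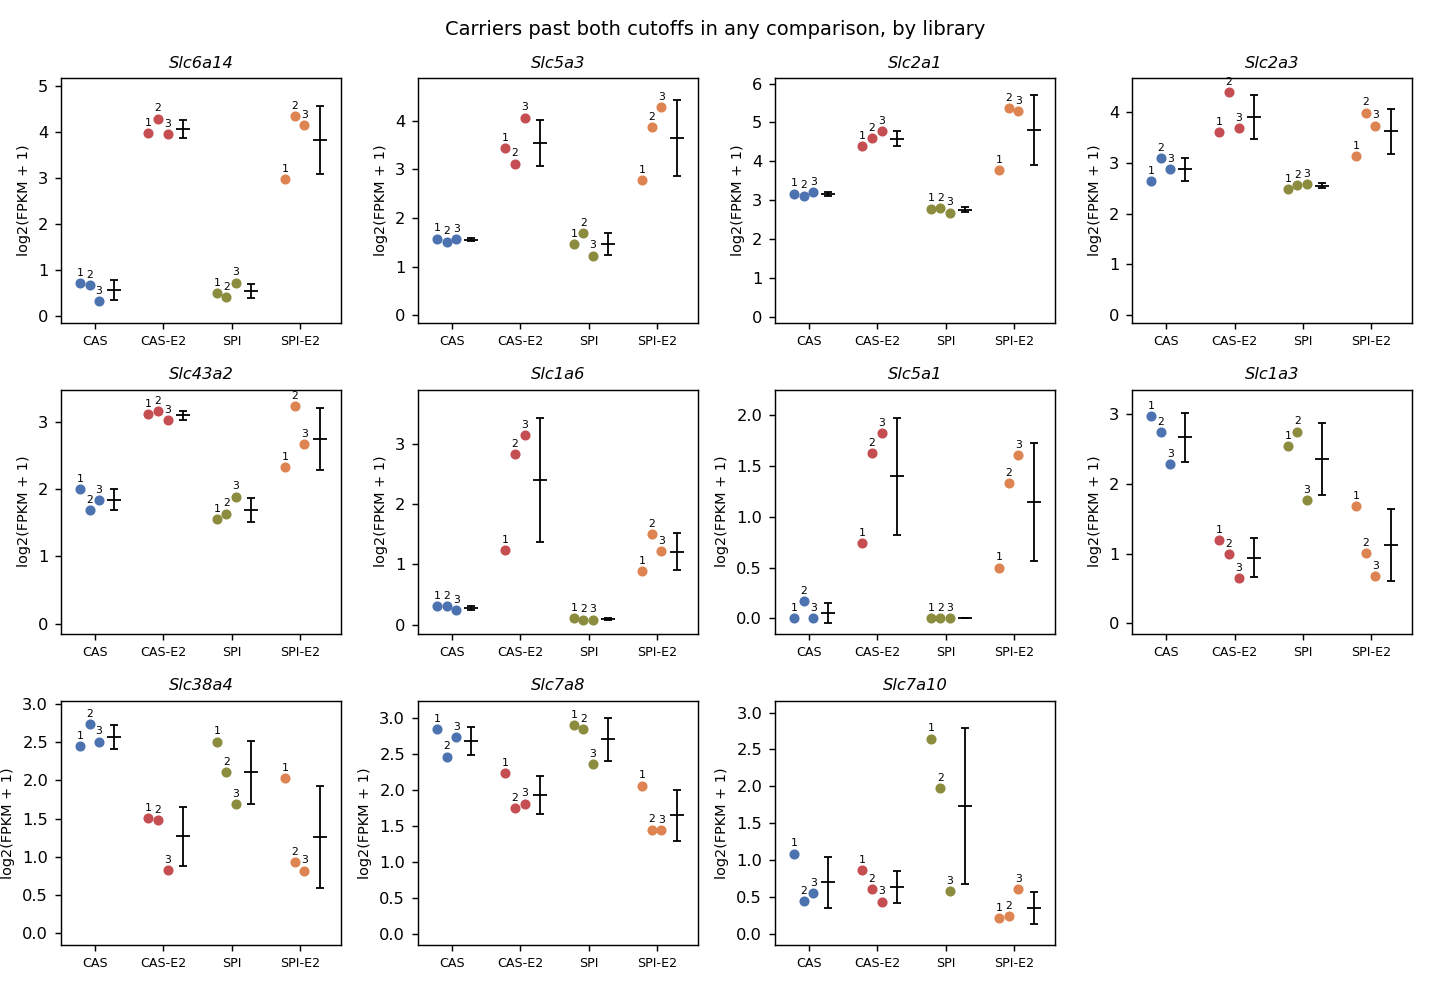
The 11 carriers that rose or fell in any comparison, as log2(FPKM + 1) on the vertical axis for each library, by group. Points are libraries with their replicate number, and bars are the mean and SD of 3 libraries. For the first 7 panels each E2 library is above each library without E2, and SPI-E2 1 is the lowest SPI-E2 library in all 7.

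Slc6a14, a sodium- and chloride-coupled carrier that takes up neutral and cationic amino acids, had the largest log2FC of the 46 carriers on both diets. It lies on chromosome X of rn4, from 12048995 to 12072434 on the plus strand. Libraries are given in the order of their replicate numbers throughout. Slc6a14 stood at 0.629, 0.580 and 0.245 FPKM in CAS and at 14.7, 18.6 and 14.5 in CAS-E2. It stood at 0.411, 0.328 and 0.645 FPKM in SPI and 6.87, 19.4 and 16.9 in SPI-E2. The E2 groups lay far above the others, and SPI-E2 1 was well under the other SPI-E2 pools. The ratio of the group means was 32.8 on casein and 31.2 on soy, and the log2FC 3.51 (SE 0.29, adjusted p = 4.05e-05) and 3.29 (SE 0.29, adjusted p = 7.59e-05). By depth and length, its values stand for about 3.32 to 12.2 reads a library in CAS and 6.63 to 13.3 in SPI. They stand for about 209 to 361 in CAS-E2 and 108 to 401 in SPI-E2. The ratios rest on few reads without E2 and are rough. Both calls held under all 22 other settings tried.
For the 7 carriers that rose, the sequence before the start site was read from RefSeq (GRCr8 build, 250 bases before and 50 from the start site on). A promoter was matched for 60 of the 79 carriers and 6 of these 7, Slc2a3 having none in the table. Letters were searched on both strands for the palindromic estrogen response element, a single arm of it (AGGTCA, which the full element can hold), the amino acid response element (TGATGNAA), the AP-1 site (TGANTCA) and the E-box (CACGTG). None of the 6 promoters held the estrogen response element, which 0.0255% of all 27457 promoters hold, the single arm (15.7% of all) or the amino acid response element (3.82%). The AP-1 letters (7.33% of all promoters, 11.7% of the 60 carriers) were in that of Slc6a14, and the E-box letters (6.65% of all, 16.7% of the 60 carriers) in those of Slc5a1 and Slc1a6. The windows with a match are printed because these genes rose together, with the matched letters in capitals. They are chrX:117144676-117144975 on the plus strand, chr14:81843035-81843334 on the minus strand and chr7:11520958-11521257 on the minus strand, all in GRCr8. The match begins 222 bases before the start site in Slc6a14, 200 in Slc5a1 and 73 in Slc1a6.
Slc6a14: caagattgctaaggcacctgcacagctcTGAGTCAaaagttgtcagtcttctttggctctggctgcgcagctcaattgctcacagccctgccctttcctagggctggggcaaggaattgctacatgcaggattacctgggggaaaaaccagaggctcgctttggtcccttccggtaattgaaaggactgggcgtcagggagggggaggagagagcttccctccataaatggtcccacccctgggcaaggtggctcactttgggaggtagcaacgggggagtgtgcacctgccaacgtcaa
Slc5a1: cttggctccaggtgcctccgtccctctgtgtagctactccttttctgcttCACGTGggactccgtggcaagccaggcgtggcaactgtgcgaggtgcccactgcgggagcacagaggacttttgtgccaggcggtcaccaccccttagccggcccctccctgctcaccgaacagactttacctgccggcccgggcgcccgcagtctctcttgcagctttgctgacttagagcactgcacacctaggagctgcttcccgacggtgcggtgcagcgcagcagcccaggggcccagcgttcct
Slc1a6: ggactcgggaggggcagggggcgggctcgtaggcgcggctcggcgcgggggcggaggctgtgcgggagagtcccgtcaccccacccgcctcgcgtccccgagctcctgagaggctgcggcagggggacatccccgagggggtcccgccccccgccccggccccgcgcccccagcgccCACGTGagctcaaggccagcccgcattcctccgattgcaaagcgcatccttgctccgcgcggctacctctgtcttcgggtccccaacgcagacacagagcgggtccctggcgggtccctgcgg
A match describes the letters and is not a site of binding.

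Among the Slc2 glucose carriers, which work down the gradient, the highest mean over the 12 libraries was that of Slc2a1, the carrier of most cell types (chromosome 5, 139690804 to 139719021 of rn4, plus strand). Slc2a1 was at 8.01, 7.67 and 8.24 FPKM in CAS and at 20.0, 23.1 and 26.3 in CAS-E2. On soy, values were 5.90, 5.90 and 5.41 FPKM in SPI and 12.6, 40.4 and 37.96 in SPI-E2. No E2 pool overlapped a pool without E2, and SPI-E2 1 lay between the SPI pools and the other SPI-E2 pools. The log2FC was 1.42 (SE 0.33, adjusted p = 0.00612) on casein and 2.06 (SE 0.33, adjusted p = 0.00162) on soy. Slc2a3, a glucose carrier of high affinity known from neurons and placenta (chromosome 4, 159210116 to 159221169 of rn4, minus strand), was at 5.25, 7.61 and 6.40 FPKM in CAS and 11.3, 20.2 and 11.98 in CAS-E2. With soy, SPI had 4.63, 4.93 and 5.01 FPKM and SPI-E2 had 7.80, 14.95 and 12.4. Its lowest E2 pool, at 7.80 FPKM in SPI-E2 1, came close to its highest pool without E2, at 7.61 in CAS 2. Its log2FC was 1.03 (SE 0.24, adjusted p = 0.00702) on casein and 1.08 (SE 0.24, adjusted p = 0.00877) on soy. It fell under 2-fold on casein without CAS 1 or CAS-E2 2, and on soy without SPI-E2 2 or with median-ratio scaling, with 0.78 as the lowest value on casein and 0.89 on soy.
Other Slc2 carriers moved less. Slc2a12, a glucose carrier of muscle and fat, had log2FC values of 0.56 (adjusted p = 0.037) and 0.58 (adjusted p = 0.0413), and Slc2a6, a carrier inside the cell, 0.51 (adjusted p = 0.0449) and 0.96 (adjusted p = 0.00396), all under 2-fold. Slc2a8, another carrier held inside the cell, was at 6.27, 5.21 and 5.92 FPKM in CAS and at 2.33, 3.48 and 1.95 in CAS-E2. With soy, SPI had 4.68, 3.68 and 3.89 FPKM and SPI-E2 had 4.65, 2.94 and 2.54. The pools were apart on casein (log2FC -0.94, adjusted p = 0.0039, under 2-fold) and overlapped on soy (-0.24, adjusted p = 0.384). On casein it passed both cutoffs with a pseudocount of 0.1 or 0.5, without CAS 2 and without CAS-E2 2. Slc2a10 had log2FC values of -0.51 (adjusted p = 0.062) and -0.68 (adjusted p = 0.0262).

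Of the sodium-coupled Slc5 carriers, 4 of 11 were tested. Slc5a3, which takes up myo-inositol (chromosome 11, 32063275 to 32065710 of rn4, plus strand), was at 1.99, 1.86 and 1.97 FPKM in CAS and at 9.86, 7.69 and 15.8 in CAS-E2. The soy pools gave 1.77, 2.21 and 1.34 FPKM (SPI) and 5.86, 13.7 and 18.5 (SPI-E2). Each E2 pool was above every pool without E2. The group means had a ratio of 5.72 on casein and 7.15 on soy, with log2FC values of 1.99 (SE 0.33, adjusted p = 0.00128) and 2.19 (SE 0.33, adjusted p = 0.00127).
Slc5a1, the sodium and glucose carrier of the gut lining (chromosome 14, 83311236 to 83370657 of rn4, minus strand), was listed at 0, 0.124 and 0 FPKM in CAS and at 0, 0 and 0 in SPI. In CAS-E2 it was at 0.675, 2.08 and 2.53 FPKM and in SPI-E2 at 0.413, 1.51 and 2.05. By depth and length, these values stand for about 8.99 to 34.8 reads a library in CAS-E2, 5.62 to 27.0 in SPI-E2 and at most 2.25 without E2. No fold is given against groups at or near 0. Its log2FC was 1.34 (SE 0.30, adjusted p = 0.00547) on casein and 1.15 (SE 0.30, adjusted p = 0.0169) on soy, and the call on soy ended without SPI 2, SPI-E2 2 or SPI-E2 3. Slc5a2, the kidney glucose carrier, was at 2.75, 2.37 and 2.69 FPKM in CAS and at 0.872, 1.71 and 0.934 in CAS-E2 (log2FC -0.75, adjusted p = 0.0064, under 2-fold except with a pseudocount of 0.1), against -0.27 (adjusted p = 0.27) on soy.

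Among carriers of large neutral amino acids that need no sodium, Slc43a2 rose on both diets and Slc7a8 fell on soy. Slc43a2, which carries leucine and other large neutral amino acids (chromosome 10, 62853094 to 62894776 of rn4, plus strand), was at 3.01, 2.22 and 2.57 FPKM in CAS and at 7.64, 7.91 and 7.15 in CAS-E2. Soy-fed pools read 1.93, 2.11 and 2.70 FPKM in SPI against 4.03, 8.44 and 5.36 in SPI-E2. Its log2FC was 1.26 (SE 0.20, adjusted p = 0.00104) on casein and 1.05 (SE 0.20, adjusted p = 0.00392) on soy, where it was under 2-fold without SPI 1 or SPI-E2 2 and with median-ratio scaling. Its relative Slc43a1 was at 6.21, 7.04 and 5.60 FPKM in CAS and at 3.56, 3.29 and 1.75 in CAS-E2. The soy pools gave 4.91, 5.43 and 5.56 FPKM (SPI) and 3.66, 2.79 and 3.02 (SPI-E2). Each E2 pool of Slc43a1 was under every pool without E2. Its log2FC of -0.94 (SE 0.18, adjusted p = 0.00274) on casein and -0.60 (SE 0.18, adjusted p = 0.031) on soy was under 2-fold on this scale, and on casein it passed 2-fold under 5 other settings with both cutoffs.
Slc7a5 and Slc7a8 are light chains that carry the same kind of amino acids in a pair with the heavy chain Slc3a2. Slc7a5 was at 1.28, 1.28 and 1.06 FPKM in CAS and at 2.71, 2.49 and 1.81 in CAS-E2. Soy-fed pools read 1.01, 0.968 and 1.05 FPKM in SPI against 2.11, 1.80 and 2.28 in SPI-E2. The E2 pools of Slc7a5 were above all others, with log2FC values of 0.59 (SE 0.14, adjusted p = 0.00726) and 0.61 (SE 0.14, adjusted p = 0.00941), under 2-fold on this scale at such levels. Slc7a8 (chromosome 15, 32800927 to 32860797 of rn4, minus strand) was at 6.16, 4.51 and 5.65 FPKM in CAS and at 3.71, 2.36 and 2.50 in CAS-E2. On soy, values were 6.45, 6.19 and 4.14 FPKM in SPI and 3.16, 1.73 and 1.72 in SPI-E2. The E2 pools of Slc7a8 were under all others. It fell on soy, by 1.05 in log2FC (SE 0.22, adjusted p = 0.00536), and on casein its log2FC was -0.75 (SE 0.22, adjusted p = 0.0179). The call on soy ended without SPI 1, SPI 2, SPI-E2 2 or SPI-E2 3.
Slc3a2, the heavy chain that both need, was at 19.3, 20.9 and 18.6 FPKM in CAS and at 14.02, 13.0 and 12.4 in CAS-E2. With soy, SPI had 18.9, 13.3 and 12.6 FPKM and SPI-E2 had 16.3, 17.4 and 11.9. The pools were apart on casein and overlapped on soy, with log2FC values of -0.54 (SE 0.18, adjusted p = 0.0296) and 0.03 (SE 0.18, adjusted p = 0.913). The other heavy chain, Slc3a1, pairs in the kidney with Slc7a9 and was at 0.841 to 1.698 FPKM without E2 and 0.400 to 0.787 with it, at log2FC values of -0.41 (adjusted p = 0.0943) and -0.47 (adjusted p = 0.0761).

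**Figure D3:**
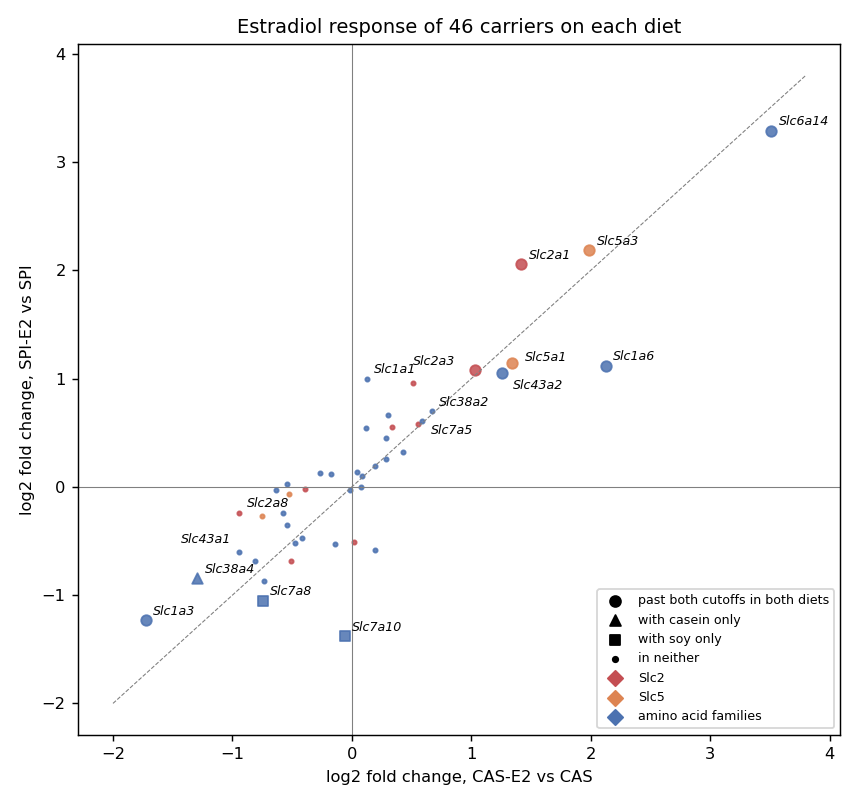
Log2FC of the 46 tested carriers under E2 on casein (horizontal axis) and on soy (vertical axis), on the log2(FPKM + 1) scale. Points are genes, the shape gives the diets in which a gene passed both cutoffs, the colour its family, and the dashed line marks equal change. Slc6a14 is farthest out at 3.51 and 3.29, and Slc7a10 lies off the line at -0.06 and -1.38.

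Among the glutamate carriers of the Slc1 family, one rose and one fell on both diets. Slc1a6, a glutamate carrier known from Purkinje cells (chromosome 7, 12393284 to 12419880 of rn4, minus strand), was at 0.233, 0.234 and 0.181 FPKM in CAS and at 1.35, 6.12 and 7.90 in CAS-E2. On soy, values were 0.0759, 0.0606 and 0.0596 FPKM in SPI and 0.856, 1.84 and 1.34 in SPI-E2. Without E2 these values stand for about 1.12 to 4.47 reads a library, so no ratio is given. The log2FC was 2.12 (SE 0.38, adjusted p = 0.00171) on casein and 1.12 (SE 0.38, adjusted p = 0.0468) on soy. The call on soy ended under 11 of 22 other settings, where the adjusted p reached 0.16.
Slc1a3, the glutamate and aspartate carrier of astrocytes (chromosome 2, 58270236 to 58347613 of rn4, minus strand), was at 6.85, 5.69 and 3.88 FPKM in CAS and at 1.28, 0.989 and 0.565 in CAS-E2. With soy, SPI had 4.83, 5.72 and 2.41 FPKM and SPI-E2 had 2.22, 1.01 and 0.597. All E2 pools were under all pools without E2, though SPI-E2 1 came close to SPI 3. It fell by 1.72 in log2FC (SE 0.31, adjusted p = 0.00166) on casein and by 1.23 (SE 0.31, adjusted p = 0.013) on soy. The call on soy ended without SPI 2, SPI-E2 2 or SPI-E2 3 and in a fit of these groups alone, at adjusted p up to 0.0592. Slc1a1, the glutamate carrier of kidney and neurons, was at 3.73 to 5.11 FPKM in CAS and 3.86 to 6.07 in CAS-E2, but at 2.52 to 2.79 in SPI and 4.88 to 7.44 in SPI-E2. Its log2FC was 0.13 (adjusted p = 0.588) on casein and 1.00 (SE 0.18, adjusted p = 0.00262) on soy, just under 2-fold, and the difference between diets is given below with the other interactions. Slc1a5, the glutamine carrier and highest Slc1 gene by its mean, had log2FC values of 0.07 and 0.00 (adjusted p = 0.846 and 1). It was at 13.4, 7.51 and 4.83 FPKM in SPI and at 7.33, 8.32 and 8.21 in SPI-E2. The value on soy rests on SPI 1, and without that library it was 0.34 (SE 0.21, adjusted p = 0.255).

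The Slc38 carriers take up glutamine, alanine and other small neutral amino acids with sodium. Slc38a2, which had the highest mean of the 79 carriers over the 12 libraries but not the highest value in each of them, was at 22.4, 17.6 and 20.8 FPKM in CAS and at 30.2, 34.1 and 33.8 in CAS-E2. The soy pools gave 17.5, 18.9 and 15.1 FPKM (SPI) and 23.3, 32.1 and 30.2 (SPI-E2). Every E2 pool was above every pool without E2, with log2FC values of 0.67 (SE 0.16, adjusted p = 0.00651) and 0.70 (SE 0.16, adjusted p = 0.00843), under 2-fold. Slc38a4, which the liver uses for alanine uptake (chromosome 7, 135693014 to 135750703 of rn4, minus strand), was at 4.47, 5.68 and 4.68 FPKM in CAS and at 1.85, 1.79 and 0.774 in CAS-E2. Soy-fed pools read 4.68, 3.31 and 2.23 FPKM in SPI against 3.07, 0.900 and 0.763 in SPI-E2. It fell by 1.29 in log2FC on casein (SE 0.32, adjusted p = 0.00789), whereas on soy the pools overlapped and the log2FC was -0.85 (SE 0.32, adjusted p = 0.065). Without SPI-E2 1 it fell on soy as well. Slc38a1, another glutamine carrier, had log2FC values of 0.29 (adjusted p = 0.343) and 0.45 (adjusted p = 0.165), and Slc38a9, the lysosomal arginine sensor, 0.11 (adjusted p = 0.59) and 0.54 (adjusted p = 0.027).

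Of 46 carriers, 11 had all 6 E2 libraries above all 6 without E2 (23.9%), beside 14.2% of all genes tested, and 5 had them all below (10.9%), beside 6.85%. The former were the 7 that rose with Slc2a6, Slc7a5, Slc36a1 and Slc38a2, and the latter were Slc1a3, Slc3a1, Slc5a2, Slc7a8 and Slc43a1. Among these, Slc1a6, Slc5a1 and Slc6a14 entered the test only through E2 libraries, and Slc3a1 only through libraries without E2. Other carriers did not pass both cutoffs under E2. Slc6a8, for creatine, had log2FC values of -0.27 (adjusted p = 0.224) and 0.12 (adjusted p = 0.608). Slc6a6, for the osmolyte taurine, had -0.02 (adjusted p = 0.948) and -0.03 (adjusted p = 0.935). Slc7a7, a light chain for cationic amino acids, had 0.19 (adjusted p = 0.399) and 0.20 (adjusted p = 0.422). Slc7a1, a cationic amino acid carrier, had 0.31 (adjusted p = 0.2) and 0.66 (adjusted p = 0.0207), and Slc36a1, a proton-coupled carrier of the lysosome, 0.43 (adjusted p = 0.0427) and 0.32 (adjusted p = 0.138).

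Between the diets without E2, no carrier rose or fell in SPI against CAS. Over all genes, 0% rose and 0.0195% fell, and 7 of the 46 carriers (15.2%) had an unadjusted p under 0.05, beside 12.8% of all genes, the smallest adjusted p being 0.302. The median log2FC was -0.14 over the carriers and -0.16 over all genes, and with median-ratio scaling -0.03 and -0.01. All SPI pools lay under all CAS pools for 12 carriers (26.1%), beside 30.8% of all genes, and above them for 2 (4.35%), beside 1.97%. The carriers with an unadjusted p under 0.05 were Slc2a4, Slc7a10 and Slc38a6 with higher values in SPI and Slc1a1, Slc3a2, Slc6a2 and Slc7a7 with lower ones. Slc1a1 was at 4.28, 3.73 and 5.11 FPKM in CAS and 2.79, 2.62 and 2.52 in SPI, with no overlap (log2FC -0.55, SE 0.18, adjusted p = 0.302).
Slc7a10, a light chain that exchanges small neutral amino acids in brain and fat (chromosome 1, 87695658 to 87711595 of rn4, plus strand), was at 1.12, 0.363 and 0.469 FPKM in CAS and at 0.821, 0.522 and 0.352 in CAS-E2. The soy pools gave 5.26, 2.95 and 0.493 FPKM (SPI) and 0.161, 0.184 and 0.520 (SPI-E2). SPI 1 and SPI 2 stood above all other libraries, and SPI 3 was level with CAS. It fell by 1.38 in log2FC in SPI-E2 against SPI (SE 0.41, adjusted p = 0.0267), although SPI 3 was under SPI-E2 3. That call ended without SPI-E2 2 or SPI-E2 3, with array weights and in a fit of these groups alone, at adjusted p up to 0.0915. It had log2FC values of -0.06 (adjusted p = 0.919) under E2 on casein and 1.04 (SE 0.41, adjusted p = 0.341) in SPI against CAS. The 7 adipocyte markers summed to 526, 388 and 87.1 FPKM in SPI 1 to 3 and to 68.1 to 139 in CAS, 101 to 283 in CAS-E2 and 174 to 311 in SPI-E2. Without SPI 1, SPI 2 or CAS 1, Slc7a10 no longer reached 1 FPKM in 3 libraries and was not tested. Slc2a4, the insulin-regulated glucose carrier of fat and muscle, was at 8.23, 5.61 and 3.86 FPKM in SPI and at 2.12 to 3.44 in CAS (log2FC 0.90, adjusted p = 0.341, and without SPI 1 0.67, adjusted p = 0.504). Slc36a2, a proton-coupled amino acid carrier below the filter, was at 2.19, 1.08 and 0.0471 FPKM in SPI and at most 0.502 in other libraries. Slc38a3, the glutamine carrier of liver, was at 5.68 FPKM in SPI 1 and at 0.0633 to 2.95 in the other libraries, and without SPI 1 it did not enter the test. The 5 liver markers summed to 1607 FPKM in SPI 1 and to 26.5 to 300.4 in the others. Slc36a2 and Slc38a3 are named after their values were seen, and the part of fat or liver RNA was not tested.

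**Figure D4:**
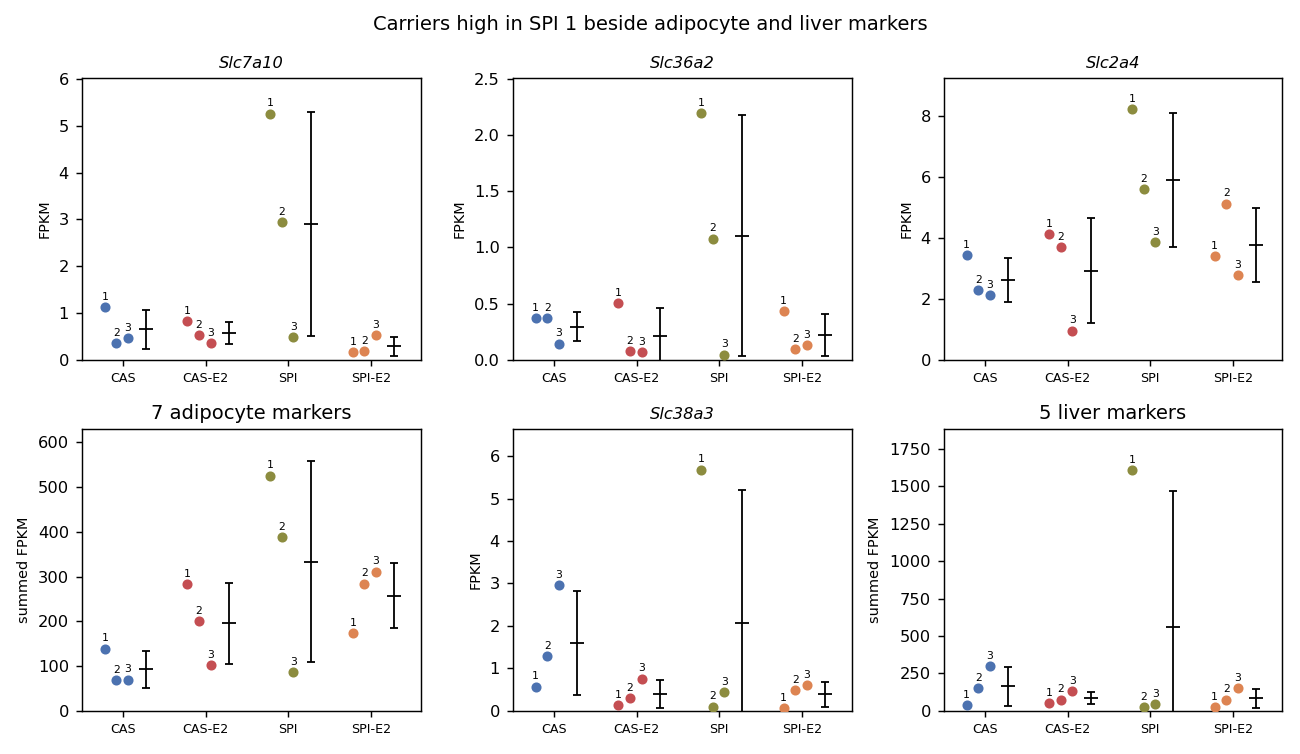
FPKM of Slc7a10, Slc36a2, Slc2a4 and Slc38a3 on the vertical axes, beside the summed FPKM of 7 adipocyte and 5 liver markers, for each library by group. Points are libraries with their replicate number, and bars are the mean and SD of 3 libraries. SPI 1 is the highest library in all 6 panels, and SPI 2 is next in the panels of Slc7a10, Slc36a2, Slc2a4 and the adipocyte markers.

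Between the diets under E2, no carrier rose or fell in SPI-E2 against CAS-E2, beside 0.00973% of all genes that rose and 0% that fell. An unadjusted p under 0.05 was found for 3 carriers (6.52%), beside 5.85% of all genes, and the smallest adjusted p was 0.631. These were Slc1a6 (log2FC -1.20, SE 0.38), Slc5a2 (0.47, SE 0.18) and Slc7a7 (-0.41, SE 0.17). Without CAS-E2 1, the lowest CAS-E2 pool of Slc1a6, this gene was lower in SPI-E2 (log2FC -1.79, adjusted p = 0.0204).
The E2 response itself was compared between diets as an interaction. No carrier passed, and 0% of all genes did in either direction. With an unadjusted p under 0.05 there were 4 carriers (8.70%), beside 14.9% of all genes, namely Slc1a1 (0.87 more on soy, SE 0.25, adjusted p = 0.193), Slc2a8 (0.70, SE 0.28, adjusted p = 0.271), Slc3a2 (0.57, SE 0.25, adjusted p = 0.306) and Slc7a10 (-1.32, SE 0.57, adjusted p = 0.306). For Slc2a1 the interaction was 0.64 (SE 0.46, adjusted p = 0.528), and without SPI-E2 1 it was 1.16 (adjusted p = 0.0254). Leaving out that library also brought 84 higher and 7 lower calls over all genes, so the change was not particular to Slc2a1. For Slc38a4, Slc7a8 and Slc43a1, which passed both cutoffs on one diet or on neither, it was 0.45, -0.30 and 0.34 (adjusted p = 0.649, 0.651 and 0.55), so a difference between diets was not shown.

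In SPI-E2 against CAS, which differ in diet and in E2, 4 of 46 carriers rose (8.70%), beside 6.84% of all genes, and 3 fell (6.52%), beside 3.89%. Of those that rose, Slc6a14 and Slc5a1 entered the test only through E2 libraries. This comparison shares the CAS libraries with that of CAS-E2 and the SPI-E2 libraries with that against SPI. Slc6a14 had a log2FC of 3.27 (SE 0.29, adjusted p = 7.58e-05), Slc5a3 of 2.09 (SE 0.33), Slc2a1 of 1.64 (SE 0.33) and Slc5a1 of 1.09 (SE 0.30). Slc1a3 fell by 1.54 (SE 0.31, adjusted p = 0.00486), Slc38a4 by 1.31 (SE 0.32) and Slc7a8 by 1.03 (SE 0.22). Slc2a3 and Slc43a2 were under 2-fold at 0.75 (adjusted p = 0.0391) and 0.90 (adjusted p = 0.00808). Slc1a6 passed neither cutoff at 0.93 (adjusted p = 0.0849). The call of Slc5a1 ended without CAS 1, CAS 3, SPI-E2 2 or SPI-E2 3, that of Slc7a8 without CAS 1, SPI-E2 2 or SPI-E2 3 and with median-ratio scaling, and that of Slc38a4 without SPI-E2 3.

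Genes that sense or use what these carriers bring in were followed as lists. Beside them, 7.99% of all genes rose and 6.37% fell on casein, and 8.39% rose and 1.86% fell on soy. The lists were not tested against these shares. Of 12 tested genes of the amino acid response and of mTORC1, the kinase complex that amino acids activate, 2 rose and 2 fell on casein, and 1 rose on soy. Asns, asparagine synthetase, rose on both diets, by log2FC values of 1.19 (SE 0.35, adjusted p = 0.0195) and 1.20 (SE 0.35, adjusted p = 0.0262), although SPI-E2 1 with 2.61 FPKM was close to the SPI pools at 1.60 to 2.49. Atf3, a stress-induced transcription factor, rose on casein (1.29, SE 0.28, adjusted p = 0.00475), where Sesn1, a sestrin that restrains mTORC1, and Rragd, a GTPase that recruits mTORC1 to the lysosome, fell by 1.01 and 1.03. Of 12 tested genes of glucose use, 1 rose and 2 fell on casein, and 1 rose and 1 fell on soy. Hk2, a hexokinase, rose on both diets, by 1.52 (SE 0.29, adjusted p = 0.00259) and 1.68 (SE 0.29, adjusted p = 0.00247). Irs2, an adaptor of the insulin receptor, fell on both, by 1.58 (adjusted p = 0.00264) and 1.11 (adjusted p = 0.0205), and Khk, which phosphorylates fructose, fell on casein by 1.28 (adjusted p = 0.00224).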

How the data were processed

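Uterine poly-A RNA of 12 libraries was read as 36-bp single reads. The authors aligned reads to rn4 with TopHat2 2.0.9 and Bowtie2 2.1.0, and the values they deposited are FPKM per transcript from Cufflinks 2.1.1, scaled to the mapped reads of each library. CASAVA 1.7 split the barcodes. FPKM were summed per gene symbol, and the 10279 genes with at least 1 FPKM in at least 3 libraries were tested on log2(FPKM + 1) with limma 3.58.1 (R 4.3.3, variance trend, 1 fit over 4 groups, Benjamini-Hochberg adjustment). Read counts and Cuffdiff were not used. Depth came from the coverage that the authors deposited beside each FPKM. The test was checked on simulated data in which only genes of higher FPKM in CAS were changed. Carriers as low in CAS as Slc6a14, Slc5a1, Slc1a6, Slc5a3 and Slc43a2 were not covered by this check. Figures used Python 3.11.15 and matplotlib 3.10.9.
The carriers and the gene lists were chosen with earlier results of these data known. Genes named are every carrier that rose or fell, the highest of each family and a fixed list, with others said to be chosen later or given as list or unadjusted-p members. Slc2a2, Slc2a6, Slc2a10, Slc2a12, Slc38a9, Slc6a4 and Slc6a13 were outside these rules and were described with their values known. Same-numbered libraries deviated together between CAS-E2 and SPI-E2 (correlations 0.269, 0.117 and 0.336), with no stated source of pairing, and not in other pairs of groups. As alternatives the pseudocount, the filter, the scaling, the fit and the cutoff were changed, the largest transcript was used alone, a replicate block was added and each library was left out.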

Additional observations from a re-analysis of the deposited data

How the results depend on the processing

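With 3 pools a group, carriers of low FPKM rest on few reads, and the counts on soy changed with single libraries. On casein, 12 carriers were higher and 8 lower with the adjusted p alone, beside 1756 and 2262 over all genes. With a pseudocount of 0.1 or 0.5, 5 or 4 fell, beside 1145 or 947 over all genes. Leaving out 1 library gave 6 to 7 rises and 2 to 4 falls. On soy, 4 rose with median-ratio scaling, and 1 fell in a fit of these groups only (78 over all genes). With the adjusted p alone 14 were higher and 5 lower, beside 2165 and 675 over all genes. Leaving out 1 library gave 3 to 9 rises and 0 to 4 falls on soy. These were 3 and 0 when SPI-E2 2 was dropped and 5 and 0 when SPI-E2 3 or SPI 2 was. They were 6 and 1 when SPI 1 was dropped, and 9 and 4 when SPI-E2 1 was. Counts over all genes moved too, with 606 rises and 66 falls without SPI-E2 2 and 1283 and 456 without SPI-E2 1. In SPI against CAS, 1 rose with array weights (Slc7a10), beside 28 rises and 31 falls over all genes. In SPI-E2 against CAS-E2, leaving out 1 library gave 0 to 1 falls. In SPI-E2 against CAS, 7 rose with a pseudocount of 0.1, beside 895 over all genes. With the adjusted p alone 9 were higher and 6 lower, beside 1482 and 1534. Leaving out 1 library gave 3 to 5 rises and 1 to 4 falls there, with 1 fall without SPI-E2 3 (172 over all genes). The interaction gave 0 to 1 (Slc2a1 without SPI-E2 1, beside 84 higher and 7 lower over all genes). With median-ratio scaling, means were 31.2 FPKM for Slc2, 26.0 for Slc7 and 182 for all families in CAS, and 11.6 for Slc5 in SPI. That scaling moved the median of all genes from -0.16 to -0.01 in SPI against CAS, from 0.11 to -0.01 in SPI-E2 against SPI and from 0.21 to 0.01 in the interaction. It gave 707 rises and 280 falls over all genes on soy (862 and 191 before) and 908 and 540 on casein (821 and 655 before). The causes were not tested. A replicate block, by which the same-numbered libraries of all groups are paired, gave 7 rises and 2 falls on casein and 7 and 3 on soy. It gave 4 rises and 4 falls in SPI-E2 against CAS, adding Slc43a3, and changed no other call of a carrier. No carrier changed direction past the cutoffs under any setting.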

Other observations

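Carriers of related families came from a list chosen with earlier results known. Of 13 tested, 2 rose and 1 fell on casein, beside 7.99% and 6.37% of all genes. On soy 2 rose, beside 8.39%. Slc37a1, a sugar phosphate carrier, rose with a log2 fold change (log2FC) of 1.03 (SE 0.26, limma adjusted p = 0.0105) on casein and 1.45 (SE 0.26, adjusted p = 0.00303) on soy. Slc45a3, a carrier of the sucrose transporter family, rose by 1.15 (SE 0.29, adjusted p = 0.00963) and 1.47 (SE 0.29, adjusted p = 0.00457). Slc15a2, a carrier of small peptides, was at 5.17, 5.82 and 4.74 FPKM in CAS and 0.629, 0.441 and 0.792 in CAS-E2, a log2FC of -1.95 (SE 0.22, adjusted p = 0.000169). In SPI it was at 3.54, 3.44 and 3.69 FPKM and in SPI-E2 at 2.86, 1.13 and 0.977, which did not overlap either (log2FC -0.85, SE 0.22, adjusted p = 0.0154, under 2-fold).
Slc7a11, the light chain of the cystine and glutamate exchanger, stayed under 1 FPKM in every library and was left out of the main test by the filter. It was at 0.124, 0.117 and 0.0724 FPKM in CAS and at 0.602, 0.604 and 0.678 in CAS-E2. In SPI it was at 0.0864, 0.0604 and 0.119 FPKM and in SPI-E2 at 0.466, 0.864 and 0.552. Each E2 pool was above every pool without E2, and by depth and length these values stand for about 4.09 to 10.2 reads a library without E2 and 30.7 to 74.7 with it. The ratio of group means was 6.02 on casein and 7.08 on soy. In a limma fit of 13860 genes without the filter, the log2FC was 0.56 (SE 0.08, adjusted p = 0.00135) on casein and 0.57 (SE 0.08, adjusted p = 0.00235) on soy, which the added 1 FPKM holds under 2-fold. Slc6a4, the serotonin carrier, was at 0.507, 0.213 and 0.330 FPKM in CAS and 0.115, 0.0459 and 0.0618 in CAS-E2. It was at 1.21, 0.397 and 0.434 FPKM in SPI, where the highest was SPI 1, the library high in liver and adipocyte markers, and at 0.170, 0 and 0 in SPI-E2.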
